A study of Mus musculus with 12 samples.

Results

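The 8 genes that act at the first shared steps of branched-chain amino acid (BCAA) breakdown were examined in the ventricular wall of WT and Sdhaf4 mutant mice. The genes were taken by name: the transaminases Bcat1 and Bcat2, the branched-chain ketoacid dehydrogenase (BCKDH) subunits Bckdha, Bckdhb and Dbt, the kinase Bckdk, the phosphatase Ppm1k, and the transcription factor Klf15. All 8 were found, each as 1 of the 43686 rows of the table, and all 8 passed the filter on low counts. RNA-seq libraries came from 6 WT mice, which carried floxed Sdhaf4 alleles without Cre (Sdhaf4fl/fl), and from 6 KO mice, which were Sdhaf4fl/fl with the Ckmm-Cre transgene. This Cre is driven by the muscle creatine kinase promoter and acts in cardiac and skeletal muscle, and the controls were littermates. The sample labels call the controls wild type and the mutants Sdhaf4-/-, all C57BL/6 mice aged 2 months. The background is given elsewhere as C57BL/6J, and the descriptions of the age of the sequenced hearts are not all alike. No mice with Cre alone were analysed here.

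Leucine, isoleucine and valine are first transaminated to their ketoacids, by Bcat2 in mitochondria and by Bcat1 in the cytosol. The ketoacids are then committed to oxidation by the BCKDH complex, in which Bckdha and Bckdhb form the decarboxylating E1 component, Dbt is the E2 transacylase core, and Dld is the E3 component shared with the pyruvate and 2-oxoglutarate dehydrogenase complexes. Bckdk phosphorylates Bckdha and inactivates the complex, and Ppm1k removes the phosphate. Klf15 is a zinc finger factor known to promote expression of BCAA breakdown genes in the heart, which has a high capacity to oxidize BCAA.

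Every library held between 23747014 and 31393393 counts, and each KO library was deeper than 5 of the 6 WT libraries. Sdhaf4 itself lay between 14.3 and 30.3 CPM (reads scaled to library size, with TMM normalization) in WT hearts and between 2.25 and 2.73 CPM in KO hearts. The defining cardiomyocyte genes were abundant in every library, with the summed level of 10 markers at 63883 to 69595 CPM in WT and 53461 to 73434 CPM in KO hearts, the highest in KO replicate 3. Of these 10 markers 5 were lower and none higher in KO hearts at an adjusted p under 0.05 (median log2 fold change -0.25), whereas 8 of 8 fibroblast markers were higher (median 1.18). Of 6 endothelial markers 1 was lower and 3 higher, of 5 mural cell markers 1 lower and 2 higher, and of 5 macrophage markers 2 lower and none higher. For comparison, 25.5% of all rows tested were lower and 25.6% higher. The summed lymphocyte, adipocyte and atrial markers were at most 4.50 CPM in every heart. In such bulk tissue, fewer cells of a type and less RNA per cell cannot be told apart.

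By edgeR's quasi-likelihood test, 6 of the 8 genes passed an adjusted p of 0.05 with a lower level in KO hearts, where 25.5% of all rows tested were lower, and 1 of 8 was higher, where 25.6% of all rows were. At the stricter threshold of the study (adjusted p of 0.005 and more than 1 on the log2 scale in either direction), 3 of the 8 were lower (4.87% of all rows) and 1 higher (5.36% of all rows). In 5 of the 8 every KO heart lay below every WT heart, which held for 15.2% of all rows, and in 0 of 8 did every KO heart lie above every WT heart (14.9% of all rows). The median log2 fold change of the 8 genes was -0.62, beside 0.002 over all rows tested. The genes did not move as 1 block: Bckdhb, Dbt and Ppm1k were at 30.9% to 35.3% of their WT levels, Bcat2 and Bckdha at 63.9% and 66.2%, Bckdk at 90.1%, Klf15 did not pass the test, and Bcat1 rose. The share of the lower cardiomyocyte and higher fibroblast markers in these changes was not tested.

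Promoter sequence was read for 7 of the 8 genes from RefSeq (GRCm38.p6), which gave 10 start sites, and Dbt had no entry. The 3 windows printed set Bckdhb and Ppm1k, which are among the 3 genes with the steepest falls, beside the kinase Bckdk, whose change was small. The 250 bases before the start site were searched on both strands for CACCC, the core of the GC-rich box that Klf factors bind, and for AAGGTCA, a site of estrogen-related receptors. Capitals mark CACCC or its reverse complement GGGTG. The Bckdhb window is chr9:83924887-83925136 on the plus strand (the upstream start of 2), the Ppm1k window chr6:57535488-57535737 on the minus strand and the Bckdk window chr7:127903823-127904072 on the plus strand, each written 5′ to 3′ on the gene's strand.
Bckdhb: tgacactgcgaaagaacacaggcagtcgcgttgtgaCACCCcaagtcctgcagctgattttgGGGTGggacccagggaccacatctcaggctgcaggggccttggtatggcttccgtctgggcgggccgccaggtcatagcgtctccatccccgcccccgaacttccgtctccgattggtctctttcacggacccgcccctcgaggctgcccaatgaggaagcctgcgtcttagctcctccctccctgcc
Ppm1k: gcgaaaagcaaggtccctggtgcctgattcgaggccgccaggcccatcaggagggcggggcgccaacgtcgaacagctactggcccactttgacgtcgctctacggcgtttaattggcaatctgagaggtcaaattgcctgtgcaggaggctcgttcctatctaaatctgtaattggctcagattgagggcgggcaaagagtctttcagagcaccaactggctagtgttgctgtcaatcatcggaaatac
Bckdk: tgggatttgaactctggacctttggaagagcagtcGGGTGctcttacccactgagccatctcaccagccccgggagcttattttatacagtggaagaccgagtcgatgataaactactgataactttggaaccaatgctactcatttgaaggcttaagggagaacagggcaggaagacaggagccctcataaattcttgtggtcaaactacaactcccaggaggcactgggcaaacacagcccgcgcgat
CACCC had 2 matches in the Bckdhb window and 1 in the Bckdk window and none in the Ppm1k window, and the second Bckdhb start site, not printed, had none. Over the members, 6 of 10 windows and 5 of 7 genes held it, and 52% of all promoter windows in the table did. AAGGTCA was in 0 of 10 windows, and in 4.08% of all windows. A match is a stretch of letters and not a site of binding.

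Among the transaminases, the mitochondrial and the cytosolic enzyme changed in opposite directions. Bcat2 (MGP_C57BL6NJ_G0032714, chromosome 7, 48123207 to 48142576 on the C57BL/6NJ assembly, as are all gene coordinates here) lay between 100.4 and 109 CPM in WT hearts (median 104) and between 55.6 and 76.7 CPM in KO hearts (median 65.8). The groups did not overlap, and the WT mean of 104 ± 2.94 CPM compared with 66.4 ± 7.14 CPM in KO (SD, 6 hearts each; log2 fold change -0.65, standard error 0.06, adjusted p = 2.34e-07 from edgeR). Bcat1 (MGP_C57BL6NJ_G0031919, chromosome 6, 153992843 to 154092509) was scarce in both genotypes, with 0.361 to 2.06 CPM in WT (median 1.12) and 1.89 to 7.97 CPM in KO hearts (median 3.37). The lowest KO heart, replicate 3, lay below the highest WT heart, replicate 6, so the groups overlapped. The log2 fold change of Bcat1 was 1.80 (standard error 0.44, 95% interval 0.86 to 2.75, adjusted p = 0.00353). These values rest on 10 to 54 reads per WT library and 57 to 232 reads per KO library. Its place among the genes past the stricter threshold was lost in 10 of 18 alternative fits, 8 of which left out 1 library (WT replicates 1, 2, 4 and 5 and KO replicates 1, 2, 4 and 5), with edgeR adjusted p from 0.00584 to 0.0292. The log2 ratio of Bcat1 to Bcat2 lay between -7.87 and -5.60 in WT and between -5.29 and -2.98 in KO hearts, without overlap, and rose by 2.44 (standard error 0.51, exact permutation p = 0.00216, adjusted 0.00278 over the 9 pairs described for the BCKDH subunits).

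The summed level of the 8 fibroblast markers was 1420 to 1670 CPM in WT and 2584 to 4867 CPM in KO hearts. In KO replicates 1 to 6 in turn, the sums were 4867, 3915, 2912, 4858, 3852 and 2584 CPM, and Bcat1 was at 3.37, 3.37, 1.89, 7.97, 5.57 and 2.34 CPM. The KO hearts with the least Bcat1 had the lowest sums, but replicate 1, whose sum was close to that of replicate 4, had less Bcat1 than replicates 4 and 5. In WT hearts, replicates 3 and 6 had the highest sums (1614 and 1670 CPM) and the most Bcat1 (1.81 and 2.06 CPM). WT replicates 2 and 4 had the lowest sums (1546 and 1420 CPM) and the least Bcat1 (0.361 and 0.557 CPM). The order was not kept throughout: WT replicate 5 had a higher sum than WT replicate 1 (1604 and 1597 CPM) but less Bcat1 (0.850 and 1.40 CPM). The 5 macrophage markers measured summed to 163 to 230 CPM in WT and 150.4 to 257 CPM in KO hearts. The part of these cells in the rise of Bcat1 was not tested.

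**Figure D1:**
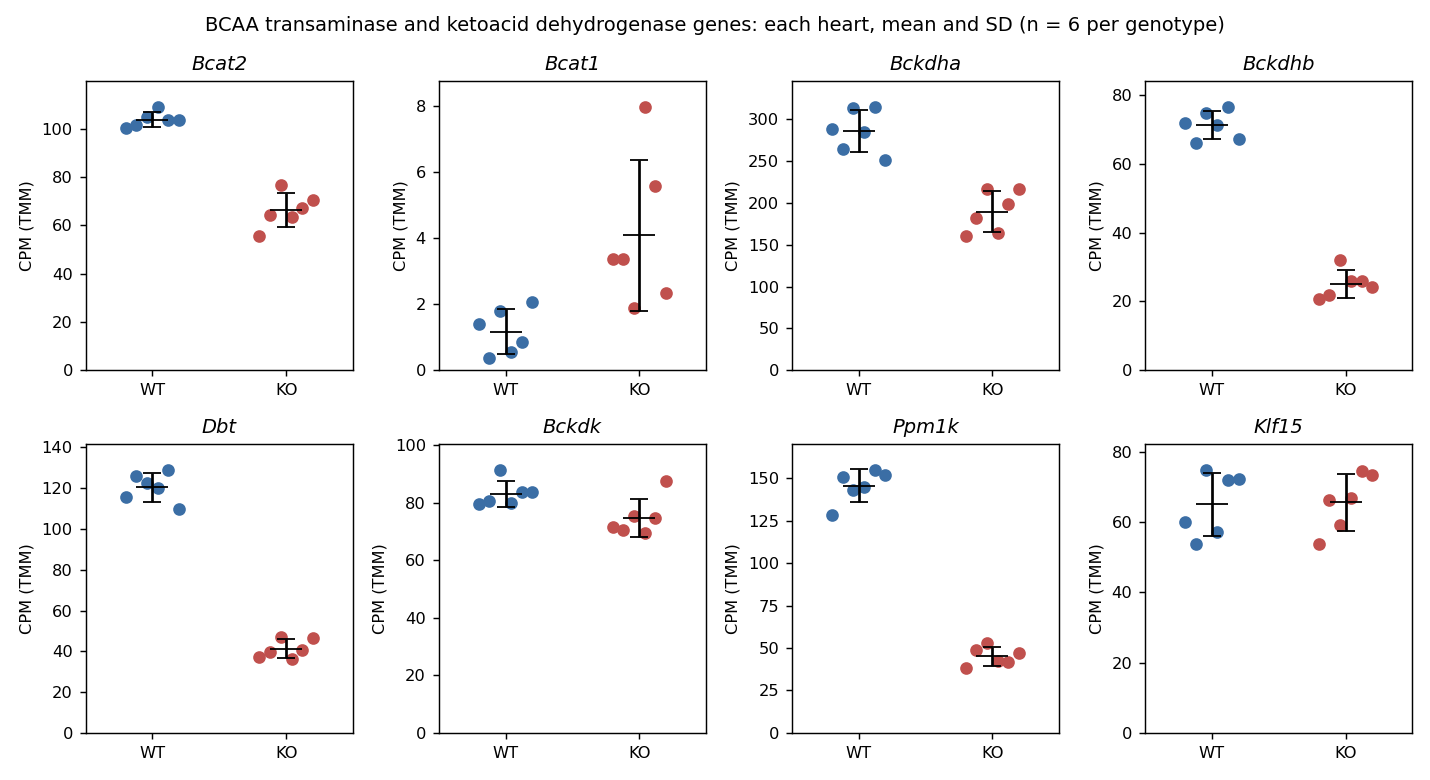
Level of each of the 8 genes (CPM with TMM normalization, vertical axis from 0) in each WT and KO heart, with the mean and SD as a bar (n = 6 per genotype). The KO points of Bckdhb, Dbt and Ppm1k lie far below the WT points, those of Bcat2 and Bckdha moderately below, those of Bckdk just below in 5 of 6 hearts, those of Klf15 among the WT points, and Bcat1 is at 7.97 CPM or less in every heart.

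The subunits of the BCKDH complex all fell, but not equally. Bckdha (MGP_C57BL6NJ_G0032320, chromosome 7, 24938341 to 24978611), the E1 alpha subunit that Bckdk phosphorylates, lay between 252 and 315 CPM in WT hearts (median 287) and between 160.3 and 217 CPM in KO hearts (median 190.04). KO hearts held 66.2% of the WT level by the fitted change (log2 fold change -0.59, standard error 0.08, adjusted p = 1.46e-05), with no overlap. Bckdhb (MGP_C57BL6NJ_G0035582, chromosome 9, 86938252 to 87150046), the E1 beta subunit, lay between 66.1 and 76.5 CPM in WT (median 71.6) and between 20.8 and 32.1 CPM in KO hearts (median 25.1). Its level in KO was 35.3% of WT (log2 fold change -1.50, standard error 0.09, adjusted p = 9.62e-10), and KO replicate 3 was the highest KO heart. Dbt (MGP_C57BL6NJ_G0028227, chromosome 3, 122756783 to 122801258) lay between 109.7 and 129 CPM in WT (median 121) and between 36.4 and 47.0 CPM in KO hearts (median 40.3). It was at 34.3% of WT (log2 fold change -1.54, standard error 0.07, adjusted p = 3.47e-11), again with no overlap. Of all rows tested, 2.79% had a lower log2 fold change than Dbt and 2.92% a lower one than Bckdhb, compared with 12.8% for Bckdha.

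Whether the subunits fell by different amounts was tested on the log2 ratio of 2 genes within each heart (log2 CPM with a prior count of 2), with a two-sided exact permutation test over the 12 hearts and Benjamini-Hochberg adjustment over 9 pairs. The ratio of Bckdha to Bckdhb was 2.00 ± 0.06 in WT and 2.92 ± 0.18 in KO hearts on the log2 scale (SD, n = 6 in each group), a rise of 0.91 (standard error 0.08, exact permutation p = 0.00216, the smallest that 6 hearts against 6 allow, adjusted 0.00278). The ratio of Bckdha to Dbt rose by 0.95 (standard error 0.05, adjusted exact permutation p = 0.00278), and in both ratios each KO heart lay above each WT heart. For Bckdhb against Dbt no difference was detected: the change of the ratio was 0.03 (standard error 0.08, exact permutation p = 0.682), with WT hearts from -0.93 to -0.68 and KO hearts from -0.94 to -0.48. The E1 alpha subunit thus fell by less than its partner E1 beta and than the E2 core.

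Per gene length, in the deposited FPKM (scaled by library size without TMM), Bckdha was the most abundant of the 8 genes in both genotypes, at 216 ± 15.3 in WT and 143 ± 15.5 in KO hearts (SD, n = 6 in each group). The quotient of Bckdha over Bckdhb in FPKM was 2.71 ± 0.104 in WT and 5.13 ± 0.650 in KO hearts. Comparisons between genes rest on lengths shorter than those listed with the counts, and other lengths could change the order. In WT hearts Bcat2 (84.8 FPKM), Dbt (84.3) and Bckdhb (79.6) followed, and their ranges overlapped. Ppm1k, at 70.3 FPKM, overlapped Bckdhb and Bckdk (57.9 FPKM), and Klf15 at 29.5 and Bcat1 at 0.704 FPKM stood apart from all others. In KO hearts the order changed. Bcat2 (54.2 FPKM) and Bckdk (52.2) overlapped in range, Klf15 (29.8), Dbt (28.9) and Bckdhb (28.1) overlapped one another, Ppm1k (21.7) overlapped Bckdhb alone among these, and Bcat1 was last at 2.48 FPKM.

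**Figure D2:**
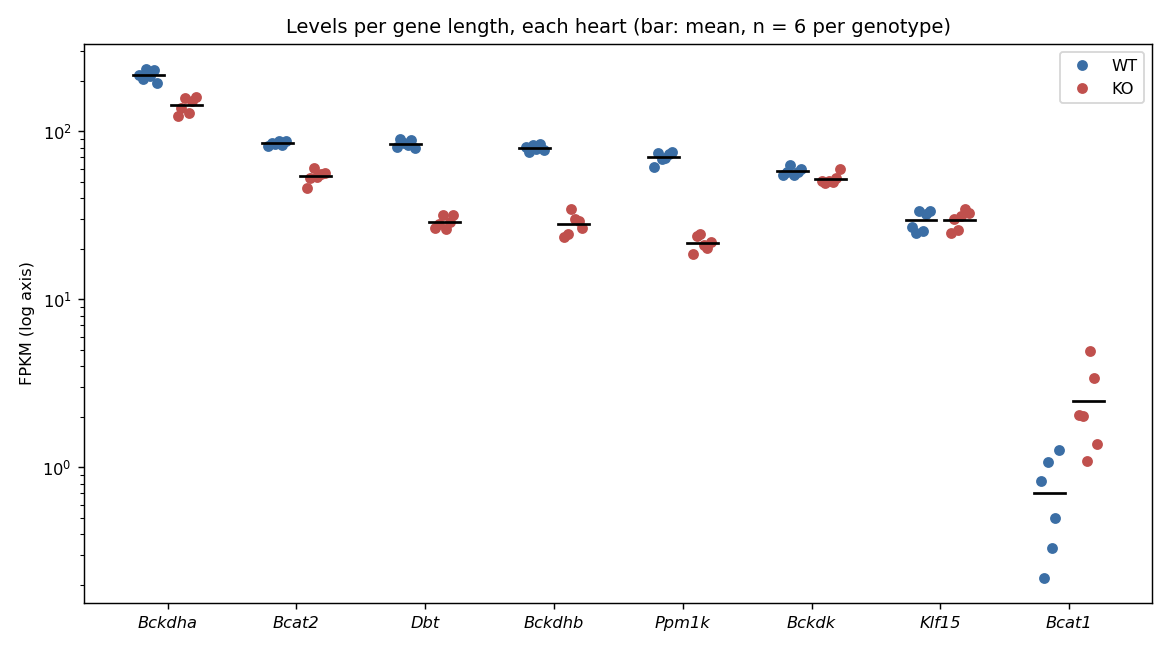
FPKM (log axis) of the 8 genes in each heart, ordered by the WT mean, with a bar at the mean of each genotype (n = 6). The mean of Bckdk is 57.9 in WT and 52.2 in KO hearts, and Dbt, Bckdhb and Ppm1k, whose means lie above it in WT hearts, lie below it in KO hearts.

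Of the enzymes that set the phosphorylation of the complex, the phosphatase fell steeply and the kinase fell slightly. Ppm1k (MGP_C57BL6NJ_G0031238, chromosome 6, 58321875 to 58350979), also called PP2Cm, lay between 128 and 155 CPM in WT hearts (median 148) and between 38.0 and 52.9 CPM in KO hearts (median 44.5). This was the steepest fall of the 8 genes, to 30.9% of WT (log2 fold change -1.69, standard error 0.07, adjusted p = 3.39e-11), and 2.37% of all rows tested had a lower log2 fold change. Bckdk (MGP_C57BL6NJ_G0033556, chromosome 7, 137437646 to 137446531) lay between 79.5 and 91.4 CPM in WT (median 82.1) and between 69.5 and 87.5 CPM in KO hearts (median 73.3). In 5 of 6 KO hearts Bckdk was below every WT heart, and KO replicate 6, at 87.5 CPM, was above all WT hearts but replicate 3. Its log2 fold change was -0.15 (standard error 0.06, 95% interval -0.27 to -0.03, adjusted p = 0.0384), a call that was lost in 8 of 18 alternative fits, 7 of which left out 1 library (WT replicate 3, 5 or 6, or KO replicate 1, 2, 4 or 5).

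The ratio of Bckdk to Ppm1k on the log2 scale lay between -0.90 and -0.64 in WT hearts and between 0.51 and 0.91 in KO hearts. It rose by 1.54 (standard error 0.09, exact permutation p = 0.00216, adjusted 0.00278 over 9 pairs), a 2.92-fold shift from phosphatase toward kinase transcript. In FPKM the quotient was 0.827 ± 0.0655 in WT and 2.42 ± 0.300 in KO hearts (SD, n = 6 in each group). Transcript levels carry no measure of the phosphorylation of the complex.

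**Figure D3:**
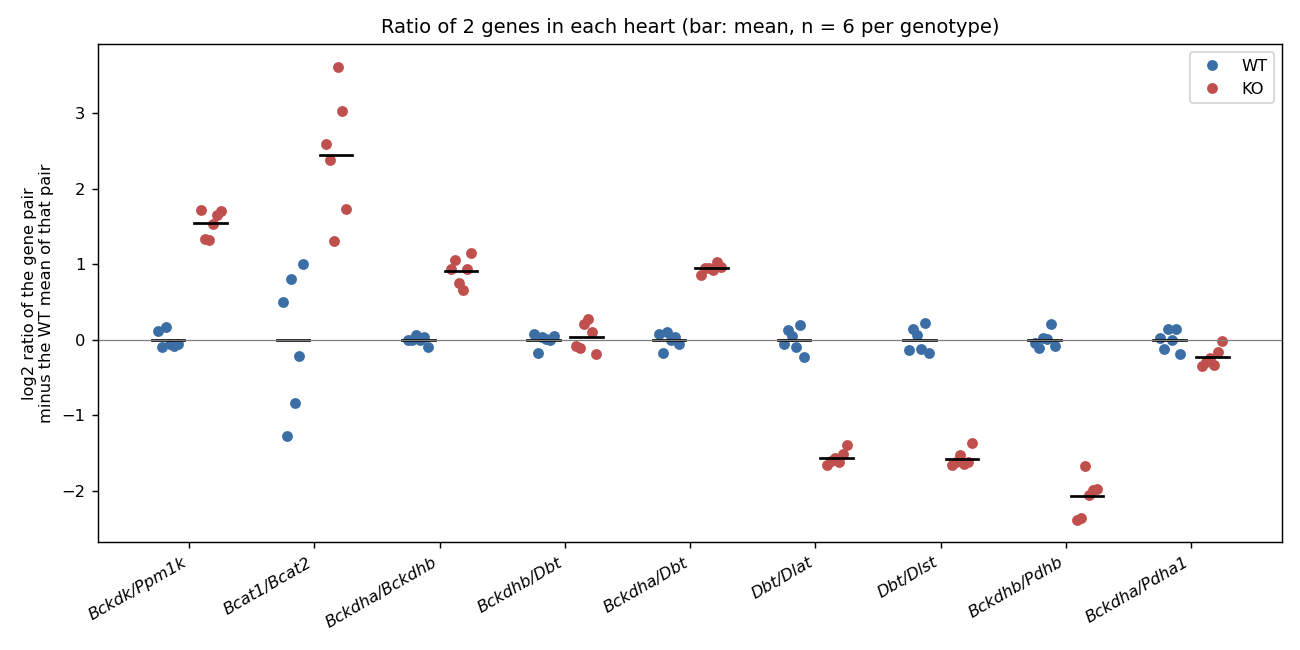
Log2 ratio of 2 genes in each heart (log2 CPM of the first minus that of the second), drawn relative to the WT mean of that pair, with a bar at each mean (n = 6 per genotype). The KO points of Bckdk over Ppm1k stand on average 1.54 above the WT mean, and those of Dbt over Dlat lie on average 1.56 below. The KO points of Bckdhb over Dbt lie on both sides of the WT mean.

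The BCKDH complex was then set beside the pyruvate dehydrogenase (PDH) and 2-oxoglutarate dehydrogenase (OGDH) complexes, which have the same architecture and share Dld. Of 7 PDH and OGDH subunit genes, 2 were lower and 1 higher in KO hearts, beside 25.5% and 25.6% of all rows. The list median was 0.01 on the log2 scale. The E2 genes Dlat (log2 fold change 0.01, 95% interval -0.11 to 0.14) and Dlst (0.03, 95% interval -0.09 to 0.15) did not pass the test. The ratio of Dbt to Dlat fell by 1.56 (standard error 0.07) and that of Dbt to Dlst by 1.57 (standard error 0.08) on the log2 scale, each with an adjusted exact permutation p = 0.00278 and no overlap of the genotypes. For the E1 beta genes the contrast was wider, because Pdhb was higher in KO hearts (log2 fold change 0.56, adjusted p = 1.55e-07 from edgeR), and the ratio of Bckdhb to Pdhb fell by 2.07 (standard error 0.12, adjusted exact permutation p = 0.00278). For the E1 alpha genes it was small: Pdha1 fell too, by 0.37 on the log2 scale, and the ratio of Bckdha to Pdha1 fell by 0.23 (standard error 0.08, adjusted exact permutation p = 0.0195) with overlapping genotypes. Dld fell by 0.27 on the log2 scale (adjusted p = 0.00104 from edgeR). The OGDH isoform Ogdhl was the PDH or OGDH subunit with the largest change (log2 fold change -1.26).

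The kinases and phosphatases of PDH also changed, in both directions. All 7 genes listed passed the test, 4 lower and 3 higher, beside 25.5% lower and 25.6% higher among all rows. The strongest falls and rises by p were those of the kinases Pdk2 (log2 fold change -0.78) and Pdk3 (1.81), the latter a minor isoform at 2.70 CPM in WT hearts. The other genes of this list were named after their values were seen. The phosphatase subunits Pdp1 and Pdp2 had log2 fold changes of -0.76 and -1.10, whereas Pdpr, also of the phosphatase, was at 0.24. Pdk4, a kinase induced by fasting and fatty acids, had a log2 fold change of -1.58, and the kinase Pdk1 of 0.18.

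Klf15 (MGP_C57BL6NJ_G0031477, chromosome 6, 94420069 to 94432732) lay between 53.8 and 74.8 CPM in WT hearts (median 66.0) and between 53.7 and 74.6 CPM in KO hearts (median 66.5). The ranges almost coincide, and the log2 fold change was 0.01 (standard error 0.10, 95% interval -0.19 to 0.22, adjusted p = 0.916 from edgeR). Klf15 protein and activity were not measured here, and the part of Klf15 in the changes of the other genes was not tested. Within genotypes, the relation of Klf15 to each of the other 7 genes was computed over 6 hearts, which gave 14 relations. Pearson's r ranged from -0.11 to 0.80, and neither r nor Spearman's rho passed after adjustment (smallest adjusted exact permutation p = 0.467 for both). The largest r, 0.80 with Bckdk in WT hearts (exact permutation p = 0.0333 before adjustment, Spearman's rho 0.71, exact permutation p = 0.136), was 0.81 without the 2 hearts farthest from the median Klf15.

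Among 6 candidate Klf15 targets written from general knowledge, 5 were lower and 1 higher in KO hearts. Kcnip2, a potassium channel subunit gene, had a log2 fold change of -1.20, Prodh, of proline breakdown, of -0.98, and the alanine transaminases Gpt and Gpt2 of -0.60 and -1.82. The glucose transporter gene Slc2a4 had a log2 fold change of -0.16 (adjusted p = 0.0184 from edgeR), and Per2, a clock gene, of 1.05. Of 7 glucocorticoid-induced genes tested, a group to which Klf15 also belongs, 3 were higher and 2 lower, with Sgk1 at a log2 fold change of 0.57 and Dusp1 at -0.56. Of 11 other Klf genes tested, 6 were lower and 2 higher, from Klf12 at -1.50 to Klf13 at 0.88. These counts stand beside 25.5% lower and 25.6% higher among all rows tested.

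The genes that bring BCAA into the cell and the mitochondrion showed no common direction. They were listed with Dld, which is not a carrier. Of the 7, 2 were lower (Slc43a2 and Dld), 2 higher and 3 did not pass, beside 25.5% lower and 25.6% higher among all rows. Slc7a5 and Slc3a2, the chains of the plasma membrane exchanger of large neutral amino acids, rose (log2 fold changes 0.61 and 0.71), and each KO heart lay above each WT heart in both. Slc43a2, another transporter of large neutral amino acids, fell by 1.07 on the log2 scale. Slc25a44, the mitochondrial BCAA carrier, had a log2 fold change of 0.03 (95% interval -0.11 to 0.16).

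Downstream of BCKDH, 18 of 19 listed genes were lower in KO hearts and 0 higher, beside 25.5% and 25.6% of all rows. Their median was -0.70 on the log2 scale, beside 0.002 over all rows. In leucine breakdown Ivd, which oxidizes isovaleryl-CoA, fell by 1.66 on the log2 scale, close to Ppm1k. All 8 isoleucine and valine genes were lower, from Aldh6a1 (-1.36) to Acad8 (-0.24). All 6 propionyl-CoA genes were lower, from Mut (-1.07) to Pccb (-0.43). Ppm1k (-1.69) thus had a lower log2 fold change than any of these genes, and Dbt (-1.54) and Bckdhb (-1.50) lay between Ivd and Aldh6a1. Bcat2 and Bckdha were near the median.

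**Figure D4:**
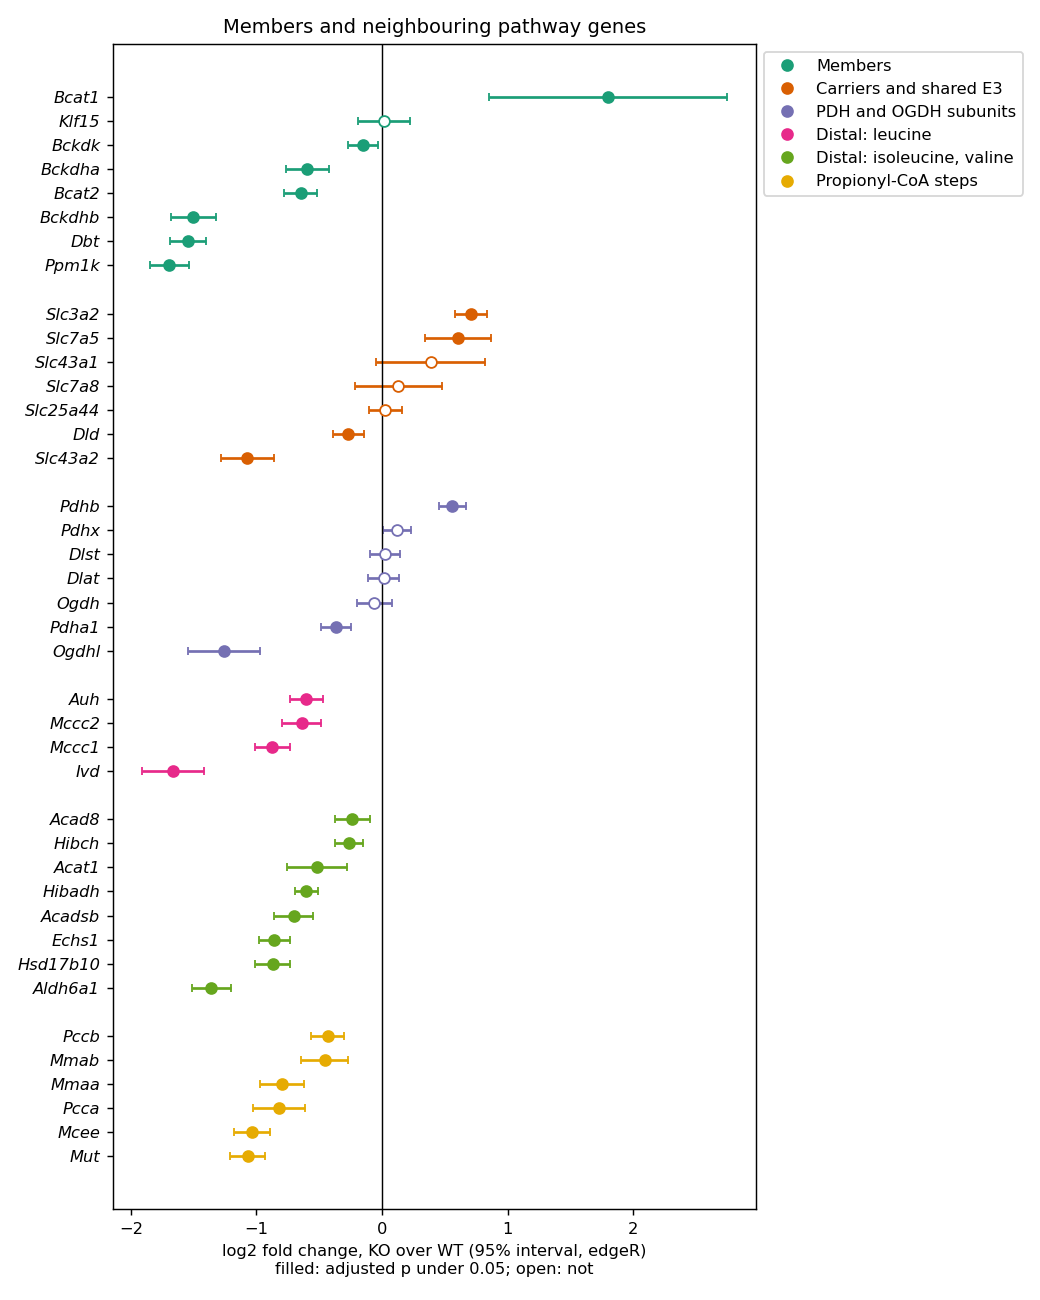
Log2 fold change, KO over WT, with the 95% interval from edgeR for the 8 genes, the carriers and Dld, the PDH and OGDH subunits, and 18 of the 19 genes of the later steps. Filled points have an adjusted p under 0.05. Ppm1k, Dbt and Bckdhb lie at -1.69 to -1.50, beside Ivd at -1.66, whereas most PDH and OGDH subunits lie near 0.

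Among hearts of the same genotype some of the members also varied together. With the genotype means removed, Pearson's r over the 12 libraries was highest between Bckdha and Dbt (0.87), then between Bcat2 and Bckdhb (0.78). It was lowest between Bcat1 and Dbt (-0.67). Other pairs were weaker, such as Bcat1 and Bckdhb at -0.05 and Dbt and Klf15 at 0.10. These values are descriptions over libraries that share their depth scaling. Of the 10250 annotated rows with a mean of at least 5 CPM, those most like each gene by this measure were Prdx5 for Dbt (r = 0.98), Ndufs7 for Bckdha (0.95), Idh2 for Bcat2 (0.94), Tarbp1 for Bckdhb (0.95), P4htm for Ppm1k (0.92), Btbd1 for Bckdk (0.92), Fbxw2 for Klf15 (0.93) and Agpat4 for Bcat1 (0.94). Each is the largest r among those rows, so selection alone raises it, and it was not tested.

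Reads at overlapping genes could belong to either gene, since whether the counting used strand is not given in the sources used here. Bckdha overlaps B3gnt8 on the other strand, which held 507 to 941 counts per library beside 4791 to 7983 for Bckdha. Dbt overlaps an unnamed row on the other strand with 38 to 554 counts, beside 2731 to 3487 for Dbt in WT and 1058 to 1420 in KO hearts. The counts of the overlapping rows are not split by genotype here, and their part in these falls was not tested. The rows that overlap Bcat2 held at most 21 counts and those that overlap Bckdhb, Bcat1 and Ppm1k at most 2, and no row overlaps Bckdk or Klf15.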

How the data were processed

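Poly-A RNA of the ventricular wall of 6 WT and 6 KO mice was sequenced. The authors mapped the reads (the submitters' processing notes list HISAT2 2.0.5 and mm10), counted them per gene with HTSeq, and deposited the raw counts. The deposited FPKM values are the authors' counts scaled by gene length and library size. Gene identifiers and positions in the table are those of the C57BL/6NJ assembly. The table also holds the authors' group means, fold changes and p-values, which were not used. Groups were taken from the sample titles, and each mouse was 1 replicate.

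Raw counts were fitted with edgeR 4.0.16 (R 4.3.3) by the robust quasi-likelihood method after filterByExpr, which left 17155 of 43686 rows, and TMM scaling. P-values were adjusted by Benjamini-Hochberg across those rows. Each standard error is the log2 fold change divided by the square root of F. Thresholds were those of the study's methods. Pairs of genes and relations to Klf15 were tested with exact permutations. The fit was tested on simulated counts. Alternatives were DESeq2 1.42.0, limma-voom (limma 3.58.1), other normalizations, no filter, a block on the replicate number, and each library left out. The 8 genes and all lists were chosen with earlier results of these data known. Genes named are the 8, genes of the BCAA, PDH, OGDH and Klf15 target lists, the smallest p per direction in other lists, and the rows most like each gene. Library totals were 23747014 to 27159228 counts in WT and 26542930 to 31393393 in KO, and at this depth Bcat1 alone rests on few reads. The values of 1 gene of the later steps are not reported here.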

Additional observations from a re-analysis of the deposited data

Results flagged for a closer look

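In 3 of 34 groups of 6 values examined (the level of each gene and each ratio of 2 genes, per genotype), 1 heart stood apart from the rest by Dixon's test at the 95% level. Chance alone flags about 1 in 20 such groups. WT replicate 3 had 91.4 CPM of Bckdk, while the rest of the WT group spanned 79.5 to 84.0 CPM. KO replicate 6 had 87.5 CPM of Bckdk, while the rest of the KO group spanned 69.5 to 75.4 CPM. The log2 ratio of Bckdhb to Dbt was -0.93 in WT replicate 2, below the other WT hearts (-0.75 to -0.68).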

How the results depend on the processing

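Across 18 alternative fits, Bcat1, Bcat2, Bckdha, Bckdhb, Dbt and Ppm1k kept their direction and an adjusted p under 0.05, and the count of genes lower in KO hearts was 5 or 6. The fitted change of Bckdk ranged from -0.20 to -0.13, with adjusted p from 0.00232 to 0.0879. That of Klf15 had no stable sign, from -0.036 to 0.067 with 1 library left out, and was below 0 without WT replicate 1, 2 or 4 (-0.017, -0.036 and -0.027) and without KO replicate 5 or 6 (-0.024 in both). The ratio of Bckdhb to Dbt changed by -0.014 to 0.078 with 1 library left out, and was at or just below 0 without WT replicate 2, KO replicate 3 or KO replicate 4. Without the 2 hearts farthest from the median Klf15, which leaves 4, r turned from -0.11 to 0.31 for Dbt in WT, from 0.30 to -0.28 for Bcat1 in KO and from 0.14 to -0.30 for Ppm1k in KO. Relations that kept their sign moved both ways. In WT, r went from 0.08 to 0.99 for Bcat2, from 0.25 to 0.83 for Ppm1k and from 0.78 to 0.14 for Bcat1. In KO, r went from 0.41 to 0.86 for Bcat2 and from 0.45 to 0.83 for Bckdha. With the replicate number as a replicate block, the calls at an adjusted p under 0.05 among all rows went from 4376 to 4110 lower and from 4391 to 4123 higher, and the change of the Bckdha to Pdha1 ratio, -0.23, no longer passed (adjusted p = 0.105, exact sign-flip permutation test). The deviations of WT and KO hearts of the same number had r from -0.26 to 0.06 over genes, and 3 of 6 WT hearts matched the KO heart of their own number best. The labels do not say what a number shares, and these values cannot tell whether it pairs the hearts. Bcat1 is limited by depth. The cause of these changes was not tested.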
